A study of Homo sapiens with 5 samples.

Results

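The genes described here handle the uptake, storage and export of iron in BT474 cells, an established breast cancer line with a luminal origin and an amplified HER2 gene. They are 10 genes chosen by name for their textbook roles, of 18512 gene symbols in the table, and each stood on 1 row. TFRC, STEAP3 and SLC11A2 serve uptake, FTH1 and FTL storage, NCOA4 the turnover of ferritin, SLC40A1 export, IREB2 and ACO1 the sensing of iron, and HMOX1 its release from heme. Polyadenylated RNA came from persister cells (3 libraries), which had survived 9 days in 2 µM lapatinib, a blocker of the EGFR and HER2 kinases. Parental cells (2 libraries) were kept over the same time without lapatinib, and both states were in 0.01% DMSO in medium with 10% serum. For each gene and state the authors deposited 1 FPKM value (sequenced fragments corrected for transcript length and library size), so no value below has a spread between libraries, an SD or an n of its own. A gene was called where the adjusted p of the authors' own test, the q-value, was under 0.05. Direct effects of the drug, arrested growth and traits of the surviving cells cannot be told apart in this design, and neither can fewer cells making an mRNA and less of it per cell.

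Iron reaches most cells bound to transferrin, which the transferrin receptor carries into endosomes. There a reductase of the STEAP family reduces the metal and the transporter DMT1 moves it into the cytosol. Iron that is not used is kept inside ferritin, a shell of heavy and light chains, and is recovered when NCOA4 takes ferritin to the lysosome. Ferroportin is the known exporter. The iron regulatory proteins IRP1 and IRP2 bind a hairpin in mRNA, the iron-responsive element, when iron is scarce. Bound in front of the coding part they hold back translation, as for ferritin and ferroportin, and bound behind it they protect the mRNA from decay, as for the transferrin receptor. Translation and protein cannot be seen in RNA levels.

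The hairpins are shown because their place, in front of or behind the coding part, differs between members. Each is 30 bases of the sense strand of a GENCODE 29 transcript, matched to the table by its RefSeq identifier (transcripts of 5032 bases for TFRC and 4164 for SLC11A2), with the position counted from the transcript's start. Capitals mark the unpaired C and the 6 bases of the loop. The 5 bases on each side of the loop are those of the upper stem, with 4 pairs in SLC11A2 and 5 in the others.
TFRC (3′ UTR, 3500 to 3529): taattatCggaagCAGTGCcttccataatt
TFRC (3′ UTR, 3904 to 3933): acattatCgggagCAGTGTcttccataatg
TFRC (3′ UTR, 3969 to 3998): tctgtatCggagaCAGTGAtctccatatgt
TFRC (3′ UTR, 4016 to 4045): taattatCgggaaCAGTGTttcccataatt
SLC11A2 (3′ UTR, 1858 to 1887): tagccatCagagcCAGTGTgtttctatggt
FTH1 (5′ UTR, 58 to 87): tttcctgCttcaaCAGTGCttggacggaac
FTL (5′ UTR, 34 to 63): tctcttgCttcaaCAGTGTttggacggaac
SLC40A1 (5′ UTR, 198 to 227): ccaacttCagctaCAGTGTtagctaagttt

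The search used the letters CNNNNNCAGTGN on the sense strand, followed by 5 bases that could pair with the 5 before the loop (G with T allowed). The letters alone were found in 51.1% of 83129 protein-coding transcripts, and with all 5 pairs in 0.741% of them. Matches with 5 pairs stood in the UTRs of TFRC (4), FTH1, FTL and SLC40A1 (1 each). The SLC11A2 match had 4 pairs and was present in 3 of the 5 GENCODE transcripts matched to that gene, so the single row for SLC11A2 mixes forms with and without it. IREB2 and ACO1 also had a match with 4 pairs in the 3′ UTR, which is not printed above. How often 4 pairs occur over all transcripts was not counted. STEAP3 and NCOA4 had at most 1 pair in a UTR match, and HMOX1 had no match in a UTR. A match is a description of letters and not evidence of binding.

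Iron genes moved in opposite directions in persister cells. All 10 members were called in the authors' deposited table, beside 69.9% of the 13617 genes their test covered and 71.5% of the 10160 covered genes with at least 1 FPKM in both states, so being called sets these genes little apart. Of the 10, 5 were higher (STEAP3, FTL, NCOA4, SLC40A1, HMOX1), beside 30.9% of covered genes, and 5 were lower (TFRC, SLC11A2, FTH1, IREB2, ACO1), beside 39% of covered genes. All differences are log2(FPKM + 1), persister minus parental. TFRC and STEAP3 alone had one of at least 1, and 9% of covered genes were called with a difference of that size. The median difference was 0.02 over the members, -0.04 over all covered genes and -0.12 over those with at least 1 FPKM in both states. The values of all genes summed to 333324 FPKM in parental cells against 260213 FPKM in persister cells. If both states are scaled to the same FPKM total, the members' differences move up by 0.25 (ACO1) to 0.36 (FTH1), and IREB2 alone of the 10 turns, from -0.18 to 0.17.

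**Figure D1:**
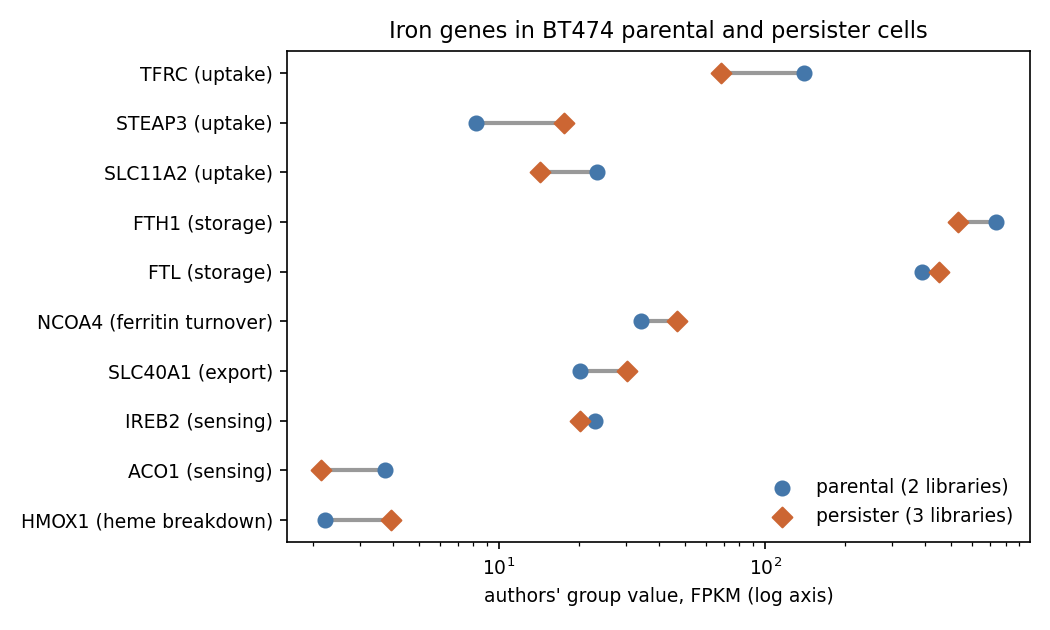
Levels of the 10 iron genes in FPKM on a log axis, with circles for parental cells (the authors' value for 2 libraries) and diamonds for persister cells (3 libraries), ordered by role. The diamond lies left of the circle for TFRC, SLC11A2, FTH1, IREB2 and ACO1 and right of it for the other 5, and no error bars are drawn because each point is 1 value for a whole state.

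In uptake, the receptor and the endosomal transporter fell while the endosomal reductase rose. TFRC, the transferrin receptor, on chromosome 3, was at 139 FPKM in parental cells against 68.2 FPKM in persister cells, 0.489 times the parental level (difference -1.02, q listed as 0 in the authors' deposited table). It went from rank 382 to rank 676 among the genes of the table. Its difference was at percentile 6.29 among the covered genes with at least 1 FPKM in both states. SLC11A2 on chromosome 12, which encodes DMT1, fell from 23.4 to 14.3 FPKM (difference -0.68, q = 6.33e-11 in the authors' deposited table), at percentile 15.8. STEAP3 on chromosome 2, the ferric reductase of the endosome, rose from 8.20 to 17.6 FPKM, 2.15 times the parental level (difference 1.02, q listed as 0 in the authors' deposited table). Its difference was at percentile 97.1, the most extreme of the 10 members on the high side. The level of TFRC was 17.0 times that of STEAP3 in parental and 3.87 times in persister cells. The exons of STEAP3 share 500 bases with an antisense gene, and without strand in these libraries reads of the 2 genes cannot be told apart.

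The other genes of uptake moved both ways. Of the 18 genes listed for uptake and reduction, 14 were covered by the authors' test, of which 8 fell and 4 rose, and their median difference was -0.21. Leaving out the 3 members, 6 of 11 fell (54.5%, beside 39% of all covered genes) and 3 rose (27.3%, beside 30.9%), and the median difference was -0.086, the value of STEAP1. The sign of this median turned under the other scalings (0.028 centred on all genes and 0.019 at the same FPKM total). LCN2, a secreted protein that binds iron-loaded siderophores, fell from 6.94 to 2.40 FPKM. SLC39A8, a carrier of zinc, manganese and iron, fell from 2.07 to 0.458 FPKM. TFR2, the other transferrin receptor, and the reductases STEAP1, STEAP2 and STEAP4 were each listed under 0.1 FPKM in both states, and were named after their values were seen.

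The 2 ferritin chains moved apart. FTH1 on chromosome 11, the heavy chain, which holds the ferroxidase centre, fell from 736 to 530 FPKM (difference -0.47, q = 2.73e-13 in the authors' deposited table). FTL on chromosome 19, the light chain, which helps form the iron core, rose from 387 to 452 FPKM (difference 0.22, q = 0.00140 in the authors' deposited table). Both were among the most abundant mRNAs in each state. FTH1 had rank 27 in parental cells and 39 in persister cells, and FTL had rank 99 and 50 The level of FTH1 was 1.90 times that of FTL in parental and 1.17 times in persister cells. Their sum was 1124 FPKM in parental cells against 982 FPKM in persister cells. As a share of all FPKM it was 0.337% in parental and 0.377% in persister cells. Both chains have a 5-pair match in front of the coding part.

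Over all genes the difference also varied with level, the background against which the ferritin chains stand. In 10 equal bins of mean FPKM, the median difference went from 0.053 in the lowest to -0.43 in the highest bin, which holds TFRC, FTH1 and FTL. FTH1 lay within 0.043 of that median, while FTL lay 0.65 above it and TFRC 0.59 below it. In that bin 12.8% of genes were called higher and 69.4% lower. Short transcripts also tended to be lower: the median was -0.43 in the shortest of 10 bins of transcript length, which holds both ferritin chains at 1229 and 878 bases. The part of level and length in these differences was not tested. GENCODE 29 names 25 pseudogenes after FTH1 and 16 after FTL, which could share their reads. FTH1 also overlaps BEST1 on the other strand, which was at 0.117 and 0.205 FPKM.

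**Figure D2:**
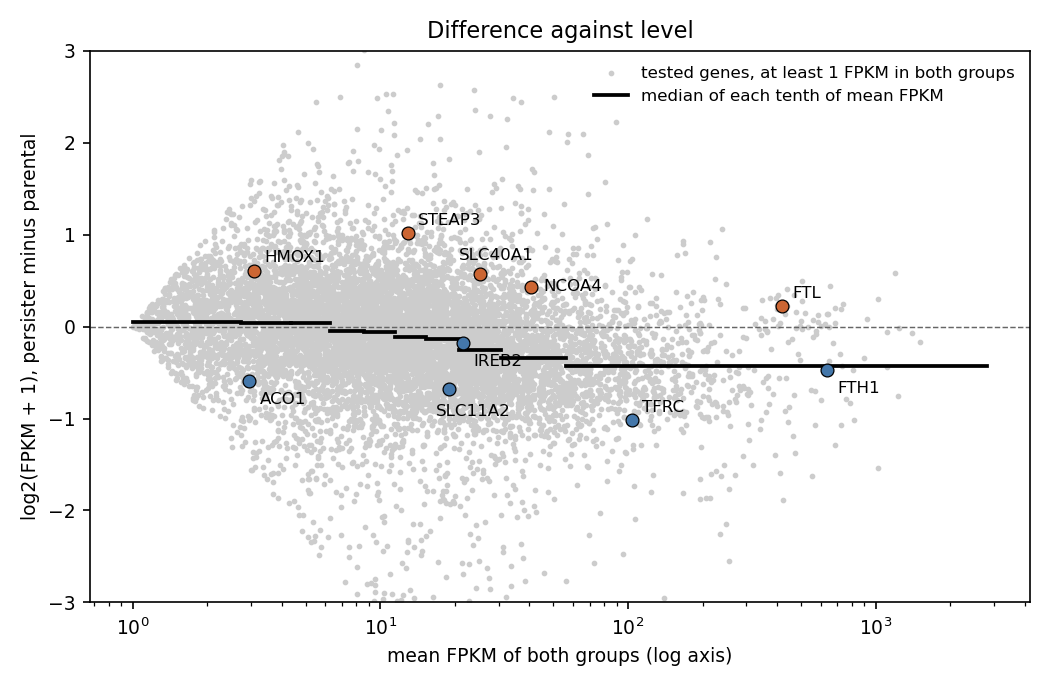
Difference between persister and parental cells on the log2(FPKM + 1) scale (y axis) against the mean FPKM of both states (x axis, log scale), with grey points for the covered genes of at least 1 FPKM in both states, black bars for the median of each of 10 bins of level, and larger points for the iron genes (orange higher, blue lower). FTH1 lies on the median of its bin and IREB2 near it, FTL, NCOA4, SLC40A1, STEAP3 and HMOX1 lie above theirs, and TFRC, SLC11A2 and ACO1 below, and 46 genes beyond 3 in either direction are not drawn.

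NCOA4 and ferroportin both rose. NCOA4 on chromosome 10, the receptor that brings ferritin to autophagosomes, was at 34.3 FPKM in parental cells against 46.6 FPKM in persister cells, 1.36 times the parental level (difference 0.43, q = 9.36e-08 in the authors' deposited table). Relative to FTH1, the chain that NCOA4 binds, its level was 0.0466 in parental and 0.0878 in persister cells. NCOA4 has 3 named pseudogenes. SLC40A1 on chromosome 2, which encodes ferroportin, rose from 20.1 to 30.4 FPKM, 1.51 times the parental level (difference 0.57, q = 2.02e-14 in the authors' deposited table), at percentile 90.2. The level of TFRC was 6.92 times that of SLC40A1 in parental and 2.24 times in persister cells, so the receptor and the exporter came closer in mRNA level. Genes in the bins of level that hold NCOA4 and SLC40A1 had median differences of -0.34 and -0.26.

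Several genes that act in autophagy rose, and genes around ferroportin moved both ways. Among 10 genes listed for ferritin turnover, 5 rose (50%, beside 30.9% of all covered genes), 1 fell (10%, beside 39%) and 4 were not called. ATG5 fell from 12.3 to 10.4 FPKM, a direction that turns at the same FPKM total. The genes not called were ATG7, ATG16L1, GABARAPL2 and TAX1BP1, which like ATG5 were named after their values were seen. The median difference of the 10 was 0.21. Both other scalings move differences up (to medians of 0.33 and 0.55), so they could not turn its sign. Without NCOA4 the median was 0.041, with 4 of 9 higher (44.4%, beside 30.9% of all covered genes) and 1 lower (11.1%, beside 39%). WIPI2, which marks growing autophagosomes, rose from 21.4 to 39.5 FPKM, and ULK1, the kinase that starts autophagy, from 21.1 to 36.9 FPKM. HERC2, the ubiquitin ligase known to target NCOA4 in iron-replete cells, rose as well, from 7.27 to 11.4 FPKM. In the list for export and hepcidin control, 7 of 12 genes were covered, of which 4 rose (57.1%, beside 30.9%) and 2 fell (28.6%, beside 39%). Their median difference of 0.16 was that of TMPRSS6, a protease listed at 0.0418 and 0.164 FPKM and named after its values were seen. Without SLC40A1 the median was 0.024, with 3 of 6 higher (50%, beside 30.9%) and 2 lower (33.3%, beside 39%). FURIN, a protease that processes hepcidin among many precursors, rose from 2.60 to 8.90 FPKM, and BMPR2, a receptor of the BMP pathway, from 3.92 to 7.14 FPKM. FLVCR1, known as a heme exporter and choline transporter, fell from 4.18 to 2.55 FPKM. HAMP, which encodes hepcidin itself, was listed at 0.0130 and 0.0369 FPKM, and the ferroxidases HEPH and CP at 0 in both states and at 0.0215 and 0.0281 FPKM. These 3 were named after their values were seen, and none was covered by the authors' test.

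Both sensors were lower, by unequal amounts. IREB2 on chromosome 15, which encodes IRP2, was at 22.9 FPKM in parental cells against 20.1 FPKM in persister cells (difference -0.18, q = 0.0132 in the authors' deposited table), the smallest difference and the weakest call of the 10. It was 0.083 above the median of its bin of level. ACO1 on chromosome 9, which encodes IRP1, an aconitase when it holds an iron-sulfur cluster, fell from 3.74 to 2.15 FPKM, 0.574 times the parental level (difference -0.59, q = 1.18e-12 in the authors' deposited table). The level of IREB2 was 6.12 times that of ACO1 in parental and 9.37 times in persister cells, so IRP2 was the more abundant sensor mRNA in both. Of the 7 genes listed for sensing, 5 fell (71.4%, beside 39% of all covered genes) and 0 rose (beside 30.9%), with a median difference of -0.27. Leaving out IREB2 and ACO1, 3 of 5 fell (60%). At the same FPKM total 3 of the 7 were lower and 2 higher, with a median of 0.08. The part of level in these counts was not tested. FBXL5, the iron-binding subunit of the ligase that degrades IRP2, was at 12.0 and 11.3 FPKM and was not called (q = 0.402 in the authors' deposited table, named after its values were seen). Its partners, shared with many other ligases, fell: RBX1 from 62.6 to 34.1 FPKM, CUL1 from 26.0 to 17.0 FPKM and SKP1 from 112 to 92.8 FPKM, the last of which turns to a higher value at the same FPKM total.

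HMOX1 rose from a low level. HMOX1 on chromosome 22, the inducible heme oxygenase that frees iron from heme, was at 2.23 FPKM in parental cells against 3.92 FPKM in persister cells, 1.76 times the parental level (difference 0.61, q = 1.90e-09 in the authors' deposited table), at percentile 91.2. Most other genes of heme handling went the other way. Of 13 listed for heme breakdown and handling, 12 were covered, of which 8 fell and 2 rose. Their median difference of -0.47 stayed negative under both other scalings. Without HMOX1, 8 of 11 fell (72.7%, beside 39% of all covered genes) and 1 rose (9.09%, beside 30.9%). From the lowest to the highest bin of level, 25.3% to 69.4% of genes were called lower, and the part of level in this count was not tested. HMOX2, the constitutive heme oxygenase, fell from 23.4 to 15.8 FPKM and was named after its values were seen. Its level was 10.5 times that of HMOX1 in parental and 4.04 times in persister cells, so the constitutive form led in both. BLVRB, a biliverdin reductase, fell from 156 to 82.0 FPKM, PGRMC1, a heme-binding membrane protein, from 94.9 to 58.0 FPKM, and the porphyrin transporter ABCB6 from 12.6 to 7.32 FPKM.

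Genes that use iron for iron-sulfur clusters were mostly lower, and heme synthesis moved both ways. Of 29 genes listed for mitochondrial iron and for iron-sulfur assembly in mitochondria and cytosol, 22 fell (75.9%, beside 39% of all covered genes) and 2 rose (6.9%, beside 30.9%), and the median difference was -0.48. Over the bins of level, from lowest to highest, the share of genes called lower ran from 25.3% to 69.4%, and the part of level in this count was not tested. At the same FPKM total, 19 of the called genes were lower and 5 higher, with a median of -0.16. BOLA3 fell from 42.2 to 15.2 FPKM, and the assembly factor ISCA2 from 14.6 to 7.55 FPKM. The glutaredoxin GLRX5 fell from 39.9 to 20.6 FPKM, and GLRX3, which serves the cytosol, from 25.6 to 12.2 FPKM. The chaperone HSPA9 fell from 158 to 95.7 FPKM. BOLA2 was listed at 13.2 and 4.81 FPKM, a value made uncertain by a near-identical copy. Heme synthesis had 4 genes lower (40%, beside 39% of all covered genes) and 3 higher (30%, beside 30.9%) of 10. The sign of its median difference of -0.06 turned under both other scalings (0.05 centred on all genes and 0.28 at the same FPKM total). ALAS1, which catalyses the rate-limiting step, fell from 23.6 to 12.0 FPKM, while PPOX rose from 6.95 to 14.0 FPKM.

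**Figure D3:**
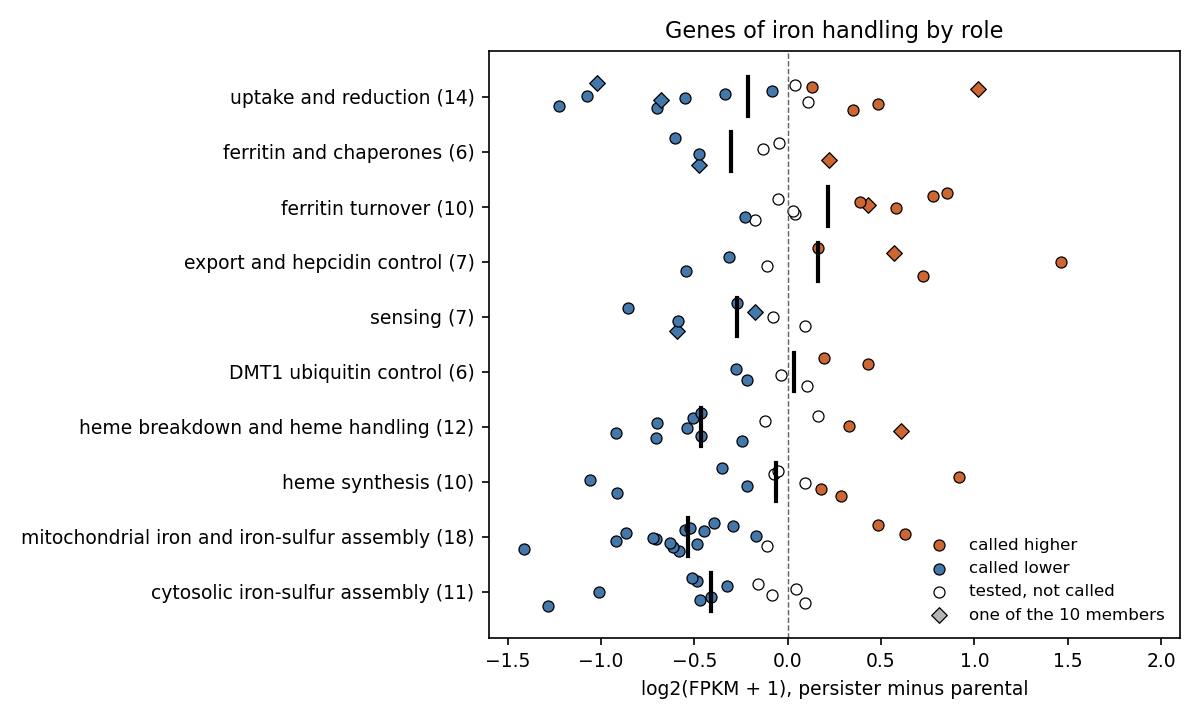
Differences on the log2(FPKM + 1) scale, persister minus parental, for the genes of 10 lists that the authors' test covered (number in brackets), with orange for called higher, blue for called lower, white for not called, diamonds for the 10 members and a black bar for each list's median. The medians are positive for ferritin turnover (0.21) and for export and hepcidin control (0.16), near 0 for DMT1 ubiquitin control and heme synthesis, and lowest for mitochondrial iron and iron-sulfur assembly (-0.53).

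Over all iron lists, 104 genes were covered, of which 56 fell and 24 rose, so 30% of the calls were upward, beside 44.2% over all covered genes. With both states at the same FPKM total these shares were 46.2%, with 43 lower and 37 higher, and 54.8%. The number of higher and lower calls thus depends on the scaling, and the share was below that of all covered genes under both. Neither scaling removes the change with level: 25.3% of genes were called lower in the lowest bin and 69.4% in the highest. The part of level in these counts was not tested. Leaving out the members, 51 of 94 fell (54.3%, beside 39% of all covered genes) and 19 rose (20.2%, beside 30.9%), with a median difference of -0.22. Beside FTH1 and FTL, 4 genes listed for ferritin and iron chaperones were covered. The chaperone PCBP1, which loads iron into ferritin, fell from 140 to 100.5 FPKM and the related PCBP4 from 7.37 to 4.51 FPKM. The other 2 were not called, so 2 of the 4 were lower (50%, beside 39% of all covered genes) and 0 higher (beside 30.9%). PCBP1 lies in the highest bin of level, and its difference of -0.47 was near the median of -0.43 there.

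The cell type was checked against 7 luminal markers, of which 6 were covered and present in both states. All 6 were called, beside 69.9% of all covered genes, and in opposite directions. GATA3 rose from 14.1 to 43.3 FPKM and ESR1 from 12.4 to 18.2 FPKM, both regulators of the luminal state. The surface protein EPCAM fell from 144 to 89.6 FPKM, and the keratins KRT8, KRT18 and KRT19 were at 0.773, 0.680 and 0.741 times their parental levels. These 4 lower markers lie in the highest bin of level, where 69.4% of genes were called lower. At the same FPKM total 2 markers were higher and 4 lower, with a median difference of -0.04 in place of -0.40. The part of level in these calls was not tested, nor was their part in the results on iron genes. ERBB2, the amplified gene itself, was listed at 0 in both states, and no level can be read for it. Of 8 macrophage markers, whose cells recycle iron in the body, 5 were under 0.1 FPKM in both states, CD163 among them, and 0 of the 3 covered were called. Their summed level was 7.09 FPKM in parental cells against 6.08 FPKM in persister cells, most of it LYZ and CD68. Of 7 fibroblast markers 6 were under 0.1 FPKM in both states, and COL1A1 was at 13.4 and 8.73 FPKM.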

How the data were processed

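Polyadenylated RNA of 5 libraries (2 parental, 3 persister) of 1 cell line was measured by sequencing without strand. The labels number the replicates without naming separate cultures, so the authors' test may cover technical spread alone. Per the submitters' processing notes, CASAVA 1.8, TopHat2 2.0.6, Cufflinks and Cuffdiff 2.0.2 were used with build hg18, with settings not given in the sources used here. In 1 table of 18803 rows the authors deposited, per the file headers, a fold change, a q-value and 1 FPKM value per group. The q-value, an adjusted p-value, is the authors' own. Zero was printed for 2712 of these values, beside a smallest value above 0 of 1.2e-15. Neither the scaling between libraries nor the depth is known, and no interval or test could be computed without values per library.

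From these values the difference log2(FPKM + 1), persister minus parental, was computed with pandas 2.3.3 (Python 3.11.15), which understates changes of low genes. A gene counted as covered where the q-value was below 1 and as called where it was under 0.05. The counting of calls was tested on simulated data whose q-values were set from the planted changes, and medians were not tested. For 269 symbols with several rows the most abundant row by mean FPKM was taken, and 25 of 26 spreadsheet dates were resolved through RefSeq identifiers. The members, the gene lists and the alternatives were chosen with earlier results of these data known. Genes named beside the members were, for each list, up to 4 called genes with the largest difference, or the 2 with the highest mean FPKM where fewer than 2 were called, and others are marked as named after their values were seen. Some genes that this rule names are not reported here. Transcripts and lengths (98.2% of the genes used in bins) came from GENCODE 29, whose build differs from hg18, so chromosomes but no genome coordinates are given. The alternatives were a pseudocount of 0.1, an FPKM minimum of 1, 3 ways of centring or scaling, a q-value under 0.01, a minimum difference of 1, and other rows for repeated symbols.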

Additional observations from a re-analysis of the deposited data

How the results depend on the processing

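The direction of the members' differences was kept in 28 of 30 values recomputed over 3 ways of centring or scaling. Centring on all genes and the same FPKM total move every member up, so neither could turn the 5 higher members. Centring on genes of similar level also moved these up, except HMOX1, which went from 0.61 to 0.57. For the higher members the kept directions therefore say little. Another pseudocount, an FPKM minimum of 1 and other rows for repeated symbols could not turn a member's sign and say nothing of it. Both exceptions were IREB2, at 0.17 with both states at the same FPKM total and at 0.083 when centred on genes of similar level, an alternative chosen after seeing the data. FTH1 kept its sign, but its difference of -0.47 shrank to -0.12 at the same FPKM total and to -0.043 when centred on genes of similar level. Requiring a difference of at least 1 left 2 of the 10 calls, 1 higher and 1 lower, and for all iron lists 9 of 80, with 2 higher and 7 lower. At the same FPKM total, 37 iron genes in place of 24 were called higher. The authors' q-value was kept in each case, since no alternative could recompute it. With a q-value under 0.01, 9 members stayed called, IREB2 being lost. No paired analysis was possible because the table holds 1 value per group and no columns carry replicate numbers, and for the same reason no library could be left out. The missing depth and spread limit every value.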

Other observations

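FTL, SLC40A1 and HMOX1, which are known targets of the antioxidant regulator NRF2, rose, while most of 8 other NRF2-regulated genes outside iron handling fell (6 lower and 1 higher by the calls of the authors' deposited table). These shares were 75% lower and 12.5% higher, beside 39% and 30.9% of all covered genes. The median difference of the 8 was -0.59 and stayed negative under both other scalings. ME1 fell from 16.8 to 5.27 FPKM, SRXN1 from 22.8 to 11.8 FPKM and NQO1 from 96.7 to 55.7 FPKM. FTH1, another known target, fell with these. A difference between the iron genes and the other targets was not tested.

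Among 5 further mRNAs known or reported to hold iron-responsive elements, CDC42BPA rose from 7.11 to 11.4 FPKM. The element search found at most 2 pairs in its UTRs. Of 7 genes listed for the ubiquitin control of DMT1, 6 were covered. Of these, 2 were higher (33.3%, beside 30.9% of all covered genes) and 2 lower (33.3%, beside 39%). NEDD4L, a ubiquitin ligase, rose from 23.6 to 32.2 FPKM, and NDFIP1, its adaptor, was called lower at 36.0 and 30.8 FPKM, a direction that also turns at the same FPKM total.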
